A study of Mus musculus with 18 samples.

Results

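Transcripts of 9 endothelial surface and junction genes were followed through mouse cells treated with a small interfering RNA (siRNA) against CYP1B1 and with estrogens. The 9 genes, Cd34, Esam, Ptprb, Mmrn2, Eng, Cdh5, Pecam1, Vwf and Plvap, were chosen by name with earlier results of these data known. Of these, 8 were matched to a row among the 15288 genes of the expression table. Cdh5, which encodes VE-cadherin, was not analysed here. Of the 8, 5 averaged at least 1 CPM (reads of a gene scaled to the same total in each library) and were tested among 11835 genes, and 3 (Pecam1, Vwf and Plvap) fell below that limit.

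Endothelial cells line blood vessels and seal to one another through adherens junctions built on VE-cadherin, through tight junctions that hold immunoglobulin-like proteins such as ESAM, and through PECAM1 contacts. Their outer face carries the sialomucin CD34 and endoglin, a co-receptor for BMP and TGF-beta ligands whose loss in humans causes hereditary vessel malformations. The phosphatase VE-PTP, the product of Ptprb, acts on VE-cadherin and on the angiopoietin receptor TIE2, and loosening of these contacts raises vessel leakage in the lung.

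The libraries came from cultures labelled as pulmonary microvascular endothelial cells, although the series title speaks of vascular smooth muscle cells. There were 6 groups of 3 libraries: siCYP1B1 with E2, siCYP1B1 with 16aOHE, siCYP1B1 with vehicle, scrambled siRNA with E2, scrambled siRNA with 16aOHE and scrambled siRNA with vehicle. Either estrogen was given at 1 uM for 24 hours, starting after transfection. E2 is estradiol, and 16aOHE is a metabolite of it, an estrone that carries 1 more hydroxyl group and has a ketone at a place where estradiol has a hydroxyl. CYP1B1 is a cytochrome P450 that hydroxylates estradiol. All groups were transfected, so what scrambled siRNA and what siCYP1B1 did cannot be told apart. The labels number no replicates and leave it unsaid whether they were grown separately, so p-values measure the spread between these libraries, which may be technical.

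At the estimated depth 1 CPM stood for 14.1 to 38.5 reads, and 3 reads for 0.0780 to 0.213 CPM. The targeted gene Cyp1b1 was 12.7% lower with siCYP1B1 under E2, 15.2% lower under 16aOHE and 11.7% lower under vehicle, the 3 siCYP1B1 libraries of each arm being below the 3 scrambled ones. Against vehicle, Cyp1b1 was 27.5% higher with E2 in scrambled cells and 26.0% higher in siCYP1B1 cells. With 16aOHE it was 15.3% and 10.7% higher. The siCYP1B1 E2 libraries therefore averaged more Cyp1b1 (102.6 CPM) than the scrambled vehicle libraries (92.2 CPM). Log2 differences below are of log2(CPM + 1), which understates the change of genes near 1 CPM, and a gene was called at a limma adjusted p under 0.05.

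Promoter sequence is shown for Cd34 and Eng because they are the 2 of 9 members with an entry in the RefSeq promoter table (GRCm38.p6). Cd34 showed the largest siRNA difference among the members, and Eng was called with E2 and with neither 16aOHE nor the siRNA. Each sequence runs from 250 bases before to 50 bases after the annotated start on the plus strand, Cd34 at chr1:194938571-194938870 and Eng at chr2:32646345-32646644. Capitals mark the ETS core AGGAAG and the SMAD box CAGAC on either strand, which appear as CTTCCT and GTCTG when they lie on the minus strand.
Cd34: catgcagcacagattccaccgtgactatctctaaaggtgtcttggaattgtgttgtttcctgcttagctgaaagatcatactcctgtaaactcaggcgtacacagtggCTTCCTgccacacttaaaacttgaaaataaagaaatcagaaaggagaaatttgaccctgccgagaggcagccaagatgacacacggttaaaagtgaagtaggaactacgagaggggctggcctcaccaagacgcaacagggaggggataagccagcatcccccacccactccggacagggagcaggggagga
Eng: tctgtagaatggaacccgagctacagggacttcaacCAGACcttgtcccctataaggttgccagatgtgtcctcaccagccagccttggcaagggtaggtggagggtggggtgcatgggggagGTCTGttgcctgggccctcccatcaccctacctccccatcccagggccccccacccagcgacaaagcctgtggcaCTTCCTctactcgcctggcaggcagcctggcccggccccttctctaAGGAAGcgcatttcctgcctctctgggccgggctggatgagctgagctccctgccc
ETS factors such as ERG and FLI1 are known activators of endothelial genes, and SMAD proteins carry BMP and TGF-beta signals. In these libraries Fli1 averaged 0.132 CPM and was at 0 in 3 of them, and Erg was not matched to a row. The Cd34 window held 1 ETS core, at -142 from the start, and no SMAD box. The Eng window held ETS cores at -6 and -52 and SMAD boxes at -127 and -214. The half-site of the estrogen response element, AGGTCA on either strand, was in neither window. Of 32851 promoters of this length, 35.4% held the ETS core, 49.6% the SMAD box and 16.3% the half-site, and a match is a description of letters, not of binding.

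Across the 18 libraries the members spanned a wide range of levels. Divided by the length of their annotated exons, the mean levels were 14.6 CPM per kb for Cd34, 6.59 for Esam, 2.34 for Ptprb, 1.92 for Eng and 1.11 for Mmrn2, against 0.0731 for Plvap, 0.00772 for Pecam1 and 0.00190 CPM per kb for Vwf. Among 15057 genes ranked this way Cd34 stood at place 3976 and Vwf at place 15048. The 8 members summed to 113.7 ± 2.11 CPM in siCYP1B1 E2, 133.8 ± 4.92 in siCYP1B1 16aOHE, 156.9 ± 2.74 in siCYP1B1 vehicle, 176.0 ± 3.53 in scrambled E2, 202.5 ± 3.83 in scrambled 16aOHE and 232.1 ± 14.0 CPM in scrambled vehicle (SD, n = 3 each). Cd34 made up 51.6% to 72.7% of that sum, so the sum mostly follows Cd34.

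The labelled cell type was compared with its markers. Pecam1, Vwf and Plvap were close to the limit of detection, as described last. Of 38 other endothelial markers listed, 23 were in the table. Their median was 0.320 CPM, 10 reached 1 CPM and 4 reached 10 CPM. Those 4 were the protein C receptor Procr (180.7 ± 10.2 CPM), the VEGF receptors Flt4 (74.9 ± 16.7 CPM) and Flt1 (70.0 ± 11.3 CPM), and thrombomodulin, Thbd (44.8 ± 4.10 CPM; SD, n = 18). Of 12 mesothelial markers in the table the median was 212 CPM, with mesothelin, Msln, at 1521 ± 130 CPM and the uroplakins Upk1b and Upk3b at 869 ± 172 and 825 ± 245 CPM. Others on that list were low, with Krt18 at 3.87, Cdh1 at 3.09, Rspo1 at 1.47 and Krt8 at 0.522 CPM. The collagen genes Col3a1 and Col1a1, the highest on the fibroblast and pericyte list, averaged 2488 ± 683 and 1946 ± 269 CPM. Of the 10 genes of that list in the table the median was 7.18 CPM, and 5 reached 10 CPM. Thy1 was at 0.544, Cspg4 at 0.217, Rgs5 at 0.0610 and Lum at 0.0427 CPM. The levels of the endothelial and mesothelial markers go against the endothelial label of the cells, and the genes are described by name.

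**Figure D1:**
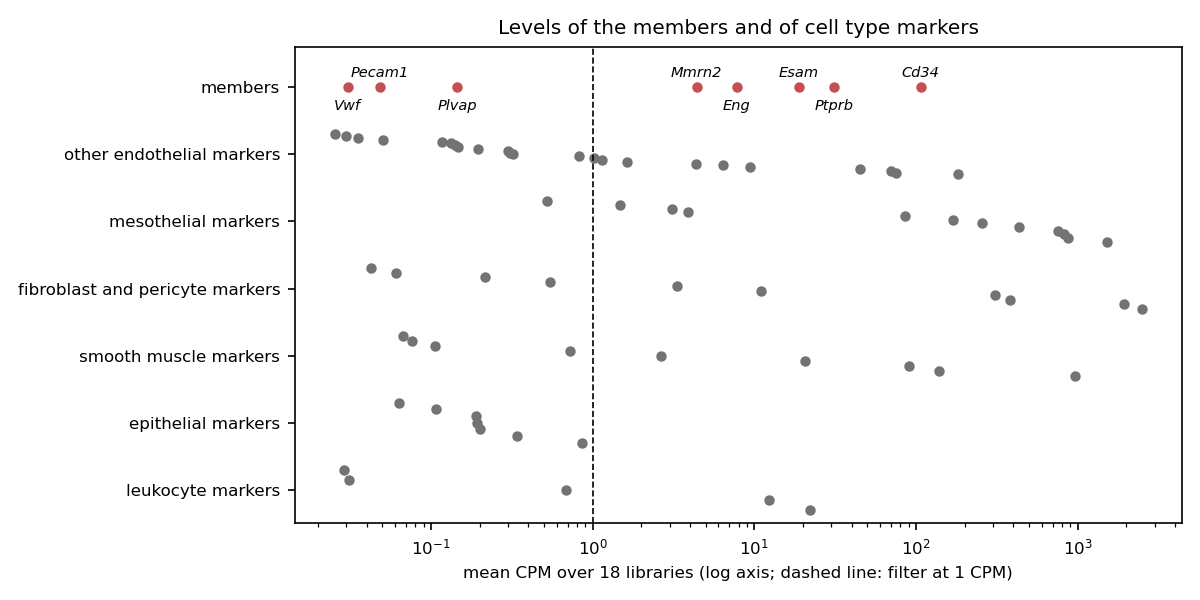
Mean CPM over 18 libraries on a log axis (horizontal) for the 8 members with a row (red, named) and for the genes of 6 cell type marker lists (grey, 1 point a gene, spread vertically for legibility); the dashed line is the 1 CPM limit for testing. Vwf, Pecam1 and Plvap lie left of the line and Cd34 at the right end of the members at 107 CPM, while 8 mesothelial markers exceed 10 CPM.

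Cd34 (chromosome 1, 194938821 to 194961292, plus strand, mm10) encodes a sialomucin of endothelial cells that is also found on blood progenitors and on some stromal and mesenchymal cells. It was the member that moved most with the siRNA. It had 66.7, 65.5 and 70.6 CPM in siCYP1B1 E2 libraries, against 115, 127 and 131 CPM in scrambled E2 libraries. With 16aOHE the values were 78.8, 70.3 and 80.4 CPM for siCYP1B1, against 128, 136 and 131 CPM for scrambled siRNA. With vehicle they were 88.4, 90.2 and 91.7 CPM for siCYP1B1, against 171, 145 and 135 CPM for scrambled siRNA. All 9 siCYP1B1 libraries thus lay below all 9 scrambled libraries, whatever the estrogen.

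With siCYP1B1 Cd34 was 45.6% lower under E2, 41.9% lower under 16aOHE and 40.1% lower under vehicle. The log2 difference averaged over the arms was -0.79 (SE 0.0385, 95% interval -0.87 to -0.71, adjusted p = 7.75e-13). Of the 2156 genes called lower in that comparison (18.2% of those tested), 18 fell further than Cd34. In single arms the log2 difference was -0.87 in E2, -0.78 in 16aOHE and -0.73 in vehicle (largest adjusted p = 1.32e-07). Fewer cells that express Cd34 and less Cd34 RNA per cell cannot be told apart in these bulk samples.

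The estrogens were followed by smaller Cd34 differences. E2 lowered it in siCYP1B1 cells (log2 -0.41, adjusted p = 0.000105) and in scrambled cells (-0.27, adjusted p = 0.00434), with no overlap between E2 and vehicle libraries in either. With 16aOHE it fell in siCYP1B1 cells (-0.24, adjusted p = 0.0412), a call that was lost without siCYP1B1 16aOHE 2 or without any of the 3 siCYP1B1 vehicle libraries (adjusted p up to 0.218). The scrambled comparison gave -0.18 (adjusted p = 0.160), and its libraries overlapped. It passed without scrambled vehicle 3 (-0.26, adjusted p = 0.0466). Ordered by level, the 6 groups ran from siCYP1B1 E2 at the bottom through siCYP1B1 16aOHE, siCYP1B1 vehicle, scrambled E2 and scrambled 16aOHE to scrambled vehicle at the top. Neighbours overlapped between E2 and 16aOHE within either siRNA, and between 16aOHE and vehicle within scrambled siRNA.

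Esam (chromosome 9, 37528089 to 37538319, plus strand) encodes an immunoglobulin-like adhesion molecule of endothelial tight junctions and platelets. It fell with both the siRNA and the estrogens. In E2 it had 10.8, 10.6 and 11.2 CPM for siCYP1B1, against 17.2, 14.6 and 15.2 CPM for scrambled siRNA. In 16aOHE it had 12.2, 16.8 and 15.4 CPM for siCYP1B1, against 22.4, 22.1 and 23.1 CPM for scrambled siRNA. Vehicle libraries held 21.8, 21.0 and 21.5 CPM with siCYP1B1, against 29.8, 27.0 and 27.0 CPM with scrambled siRNA. In each arm the siCYP1B1 libraries were the lower ones without overlap, and in each siRNA the E2 libraries were lowest and the vehicle libraries highest, again without overlap.

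Averaged over the arms, Esam fell by 0.48 on the log2 scale with siCYP1B1 (95% interval -0.58 to -0.38, adjusted p = 1.35e-07), and 150 of the 2156 genes called lower fell further. Per arm it was 30.7% lower in E2, 34.3% lower in 16aOHE and 23.3% lower in vehicle. With E2 it was 49.2% lower in siCYP1B1 cells (log2 -0.92, adjusted p = 1.24e-07) and 43.8% lower in scrambled cells (log2 -0.79, adjusted p = 8.24e-07). With 16aOHE it was 30.9% lower in siCYP1B1 cells (log2 -0.52, adjusted p = 0.000929). In scrambled cells the 16aOHE difference was -0.30 (95% interval -0.48 to -0.11) and did not pass (adjusted p = 0.0621), though the libraries did not overlap; it passed with a pseudocount of 5 CPM (adjusted p = 0.0422) and when only those groups were fitted (adjusted p = 0.0192). The siCYP1B1 16aOHE and scrambled E2 groups were neighbours in level and overlapped.

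Mmrn2 (chromosome 14, 34375504 to 34404286, plus strand) encodes multimerin-2, an extracellular matrix protein that coats the outer side of vessels and binds the endothelial receptors CLEC14A and CD93. It followed the estrogen and not detectably the siRNA. E2 libraries had 1.68, 2.10 and 2.14 CPM with siCYP1B1, against 2.54, 1.71 and 1.84 CPM with scrambled siRNA. The 16aOHE libraries had 4.19, 4.15 and 2.83 CPM with siCYP1B1, against 3.96, 4.91 and 3.85 CPM with scrambled siRNA. Vehicle libraries had 6.98, 7.70 and 6.64 CPM with siCYP1B1, against 6.38, 7.75 and 7.86 CPM with scrambled siRNA. The siRNAs overlapped in every arm, whereas E2, 16aOHE and vehicle libraries formed 3 separate steps in each siRNA. The lowest of these values stood for about 37 reads.

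With E2, Mmrn2 was 72.3% lower in siCYP1B1 cells (log2 -1.45, SE 0.137, adjusted p = 1.24e-07) and 72.3% lower in scrambled cells (log2 -1.46, adjusted p = 1.21e-07). Of the 1349 genes called lower by E2 in scrambled cells, 4 fell further than Mmrn2. With 16aOHE it was 47.6% lower in siCYP1B1 cells (log2 -0.79, adjusted p = 0.00120) and 42.2% lower in scrambled cells (log2 -0.67, adjusted p = 0.00591). The siRNA difference averaged over the arms was -0.072 (95% interval -0.24 to 0.093, adjusted p = 0.482). The E2 difference in siCYP1B1 cells minus that in scrambled cells was 0.014 (95% interval -0.39 to 0.42).

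**Figure D2:**
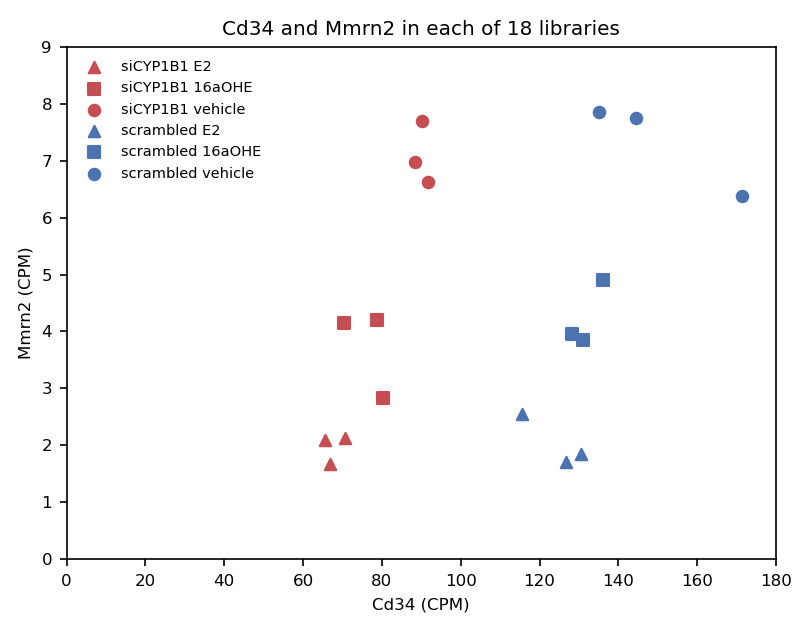
CPM of Mmrn2 (vertical) against CPM of Cd34 (horizontal) in each of the 18 libraries, coloured by siRNA (siCYP1B1 red, scrambled blue) with the estrogen as the marker (E2 triangle, 16aOHE square, vehicle circle). The siCYP1B1 libraries sit left of 100 CPM on the Cd34 axis and the scrambled ones right of it, while the estrogens separate along the Mmrn2 axis with E2 lowest.

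Cd34 and Mmrn2 thus changed their ratio in opposite directions under the siRNA and under E2, as the scatter of the pair shows. The ratio was taken as the log2(CPM + 1) of Cd34 minus that of Mmrn2. It therefore lies under the log2 ratio of the CPM values, most so with E2, where Mmrn2 was lowest. So computed, it averaged 4.02 in siCYP1B1 and 4.74 in scrambled libraries over the 3 arms. It averaged 4.95 with E2 and 3.84 with vehicle over both siRNAs. These ratios are given as a description, since both genes' differences are already tested above.

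Eng (chromosome 2, 32646595 to 32682669, plus strand) encodes endoglin. E2 libraries had 6.84, 6.67 and 6.63 CPM with siCYP1B1, against 8.07, 5.78 and 6.12 CPM with scrambled siRNA. The 16aOHE libraries had 7.11, 7.17 and 7.68 CPM with siCYP1B1, against 8.16, 8.53 and 8.17 CPM with scrambled siRNA. Vehicle libraries had 7.89, 9.0 and 9.79 CPM with siCYP1B1, against 8.15, 8.74 and 9.24 CPM with scrambled siRNA. The siRNAs overlapped in E2 and in vehicle and did not overlap in 16aOHE, and E2 libraries were below vehicle libraries in either siRNA.

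With E2 Eng was 24.5% lower in siCYP1B1 cells (log2 -0.35, adjusted p = 0.0123) and 23.6% lower in scrambled cells (log2 -0.35, adjusted p = 0.0116). The call was lost in siCYP1B1 cells without siCYP1B1 vehicle 3 (adjusted p = 0.0707), and in scrambled cells without scrambled E2 2, scrambled E2 3 or scrambled vehicle 3 (adjusted p = 0.0519 to 0.0750). Its siRNA difference averaged over the arms was -0.037 (95% interval -0.16 to 0.085, adjusted p = 0.633). With 16aOHE against vehicle it was -0.25 in siCYP1B1 cells (adjusted p = 0.171) and -0.063 in scrambled cells (adjusted p = 0.845). Annotated exons of Eng share 61 bases with Fpgs on the opposite strand, a gene at 50.2 ± 3.76 CPM that itself fell with E2 in scrambled cells (log2 -0.25, adjusted p = 0.00272). No label states whether reads were counted by strand, and the part of Fpgs in the Eng value was not tested. Cd34 shares 148 exon bases with Gm16897, which averaged 0.314 CPM.

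Ptprb (chromosome 10, 116301374 to 116389538, plus strand) encodes VE-PTP. E2 libraries had 28.8, 26.1 and 24.1 CPM with siCYP1B1, against 29.4, 26.5 and 25.7 CPM with scrambled siRNA. The 16aOHE libraries had 25.8, 37.6 and 30.5 CPM with siCYP1B1, against 35.1, 33.6 and 37.6 CPM with scrambled siRNA. Vehicle libraries had 28.6, 30.7 and 28.1 CPM with siCYP1B1, against 31.8, 37.9 and 42.7 CPM with scrambled siRNA. Replicates of Ptprb spread more than those of Cd34, and the siRNAs were separate in the vehicle arm alone.

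The siRNA difference of Ptprb averaged over the arms was -0.19 (95% interval -0.32 to -0.064, adjusted p = 0.0147), so that it was called lower. In single arms it fell in vehicle (-0.34, adjusted p = 0.0263), while E2 gave -0.047 (adjusted p = 0.795) and 16aOHE -0.19 (adjusted p = 0.238). Without siCYP1B1 16aOHE 2, the highest Ptprb library of its group, the 16aOHE difference was -0.32 and passed (adjusted p = 0.0341), and without siCYP1B1 16aOHE 1, the lowest, it was -0.061 (adjusted p = 0.725). The vehicle call was lost without siCYP1B1 vehicle 1, siCYP1B1 vehicle 3, scrambled vehicle 2 or scrambled vehicle 3 (adjusted p = 0.0692 to 0.154). With E2, Ptprb was 27.4% lower in scrambled cells (log2 -0.44, adjusted p = 0.00343), and the difference in siCYP1B1 cells was -0.14 (95% interval -0.37 to 0.076, adjusted p = 0.338). The difference between those was 0.30 (95% interval -0.017 to 0.61) and did not pass (adjusted p = 0.998).

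**Figure D3:**
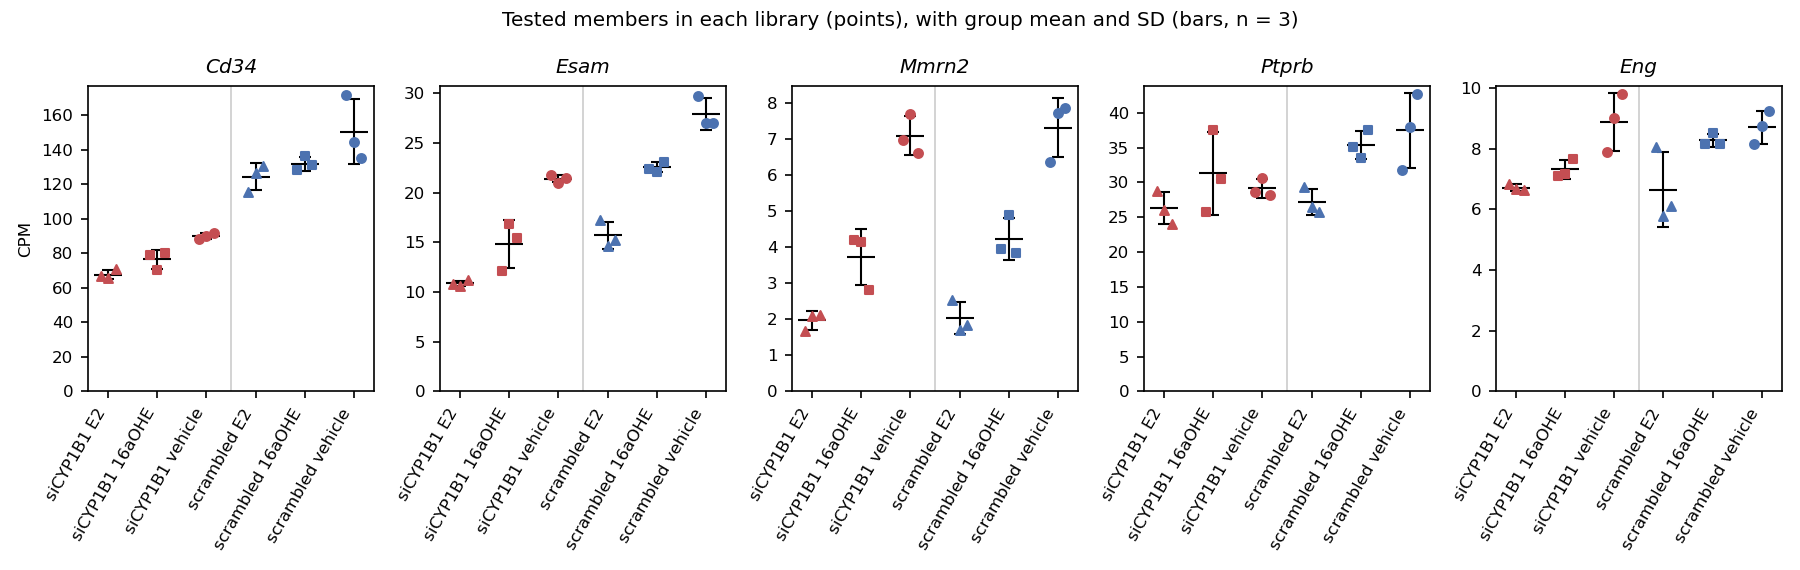
CPM of the 5 tested members (1 panel each, vertical axis from 0) in the 3 libraries of each group, with siCYP1B1 groups in red, scrambled groups in blue, and black bars for the group mean and SD (n = 3). Cd34 steps between the siRNAs, Mmrn2 steps between the estrogens, and Esam shows both.

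Taking the members by comparison, siCYP1B1 lowered 2 of 5 in E2 (Cd34 and Esam), 2 of 5 in 16aOHE (the same pair) and 3 of 5 in vehicle (with Ptprb), and raised none. Of all tested genes 9.8%, 9.31% and 9.12% were called lower in those comparisons. Higher ones made up 53.7% of all siRNA calls in E2 and 55.7% in vehicle, or 41.1% and 41.4% with median-of-ratios factors, and the members called stayed 2 and 3 of 5. E2 lowered 4 of 5 in siCYP1B1 cells and 5 of 5 in scrambled cells, against 10.8% and 11.4% of all tested genes. Of all E2 calls in siCYP1B1 cells 60.6% were higher ones, or 45.7% with median-of-ratios factors. With 16aOHE, 3 of 5 fell in siCYP1B1 cells (Mmrn2, Esam and Cd34) and 1 of 5 in scrambled cells (Mmrn2), against 2.86% and 2.08% of all tested genes. The comparisons of E2 and of 16aOHE with vehicle share the vehicle libraries. Because the members were chosen with earlier results of these data known, the shares beside the counts are a description and no test of the set.

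No member differed between siRNAs in its response to an estrogen at the adjusted threshold. Neither interaction called any of the 11835 genes with limma (0% and 0%); 470 genes for E2 and 596 for 16aOHE had an unadjusted p under 0.05, and none of the 5 members was among them. Fitting only the groups of the 16aOHE interaction called 12 genes. The calls in one siRNA and not in the other, as for Ptprb with E2, are therefore not shown to differ.

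**Figure D4:**
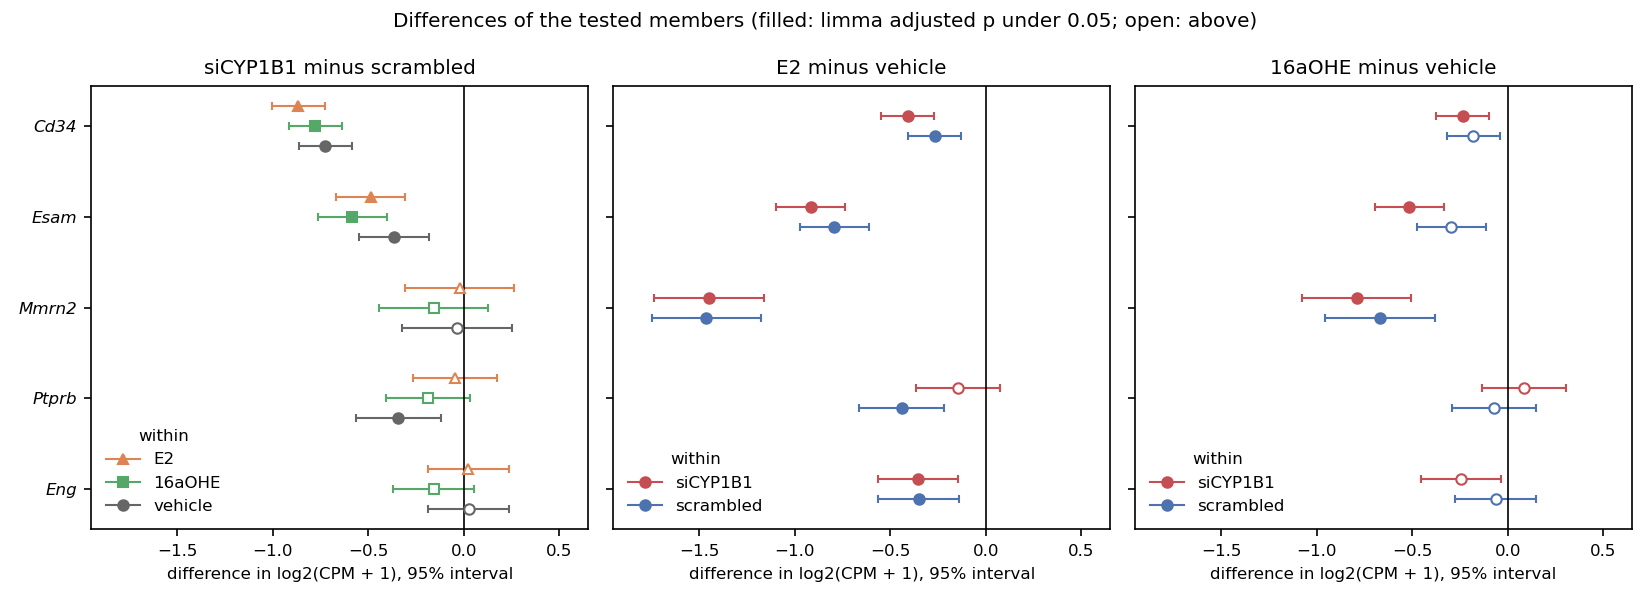
Differences in log2(CPM + 1) of the 5 tested members (rows) with their 95% intervals, for siCYP1B1 minus scrambled within each estrogen arm (left), E2 minus vehicle within each siRNA (middle) and 16aOHE minus vehicle within each siRNA (right). Filled symbols passed an adjusted p of 0.05 in limma; every filled symbol lies below 0, with Mmrn2 at -1.46 the lowest.

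The estrogens were also compared with each other at the same dose and time, over 10 differences of 5 members in 2 siRNA backgrounds. Mmrn2 was higher with 16aOHE than with E2 in siCYP1B1 cells (log2 0.66, adjusted p = 0.00200) and in scrambled cells (0.79, adjusted p = 0.000391). Esam was higher with 16aOHE in siCYP1B1 cells (0.40, adjusted p = 0.00268) and in scrambled cells (0.50, adjusted p = 0.000414). Ptprb was higher in scrambled cells (0.37, adjusted p = 0.0185), a call lost without scrambled E2 2, scrambled E2 3 or scrambled 16aOHE 3 (adjusted p = 0.0565 to 0.0792). Thus 2 of 5 members were called higher in siCYP1B1 cells and 3 of 5 in scrambled cells, against 6.59% and 6.78% of all tested genes, with p-values adjusted over all genes. With median-of-ratios factors it was 3 of 5 members (with Cd34) in siCYP1B1 cells and 4 of 5 (with Eng) in scrambled cells, against 9.98% and 9.64% of all tested genes. That scaling turned the split of all calls between the compounds: 59.3% of them were higher ones in siCYP1B1 cells, against 35.9% with the deposited CPM, and 54.5%, against 36.8%, in scrambled cells.

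For the other differences between the compounds the intervals were as follows. Cd34 differed by 0.17 in siCYP1B1 cells (95% interval 0.036 to 0.31, adjusted p = 0.0728) and by 0.086 in scrambled cells (-0.053 to 0.22). Eng differed by 0.11 in siCYP1B1 cells (-0.10 to 0.32) and by 0.29 in scrambled cells (0.079 to 0.50, adjusted p = 0.0512). Ptprb differed by 0.23 in siCYP1B1 cells (0.0079 to 0.45, adjusted p = 0.142). None of these 5 passed with the deposited CPM and all libraries, and calls for 3 of them depended on the processing or on 1 library. Cd34 in siCYP1B1 cells passed with median-of-ratios factors (0.22, adjusted p = 0.0201), with quantile normalization (0.21, adjusted p = 0.0303) and without siCYP1B1 16aOHE 2 (0.23, adjusted p = 0.0310). Eng in scrambled cells passed with median-of-ratios factors (0.32, adjusted p = 0.0357), with a pseudocount of 5 CPM (0.19, adjusted p = 0.0494), with a filter at a mean of 5 CPM (0.29, adjusted p = 0.0466) and without scrambled E2 1 (0.42, adjusted p = 0.00620). Ptprb in siCYP1B1 cells passed without siCYP1B1 16aOHE 1 (0.36, adjusted p = 0.0186).

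The share of each member's variation that went with each factor followed the same pattern. For Cd34 85.5% of the sum of squares over the 18 libraries lay between the siRNAs and 10.7% between the estrogens. For Mmrn2 these shares were 0.350% and 94.2%, for Esam 30.3% and 64.3%, for Eng 1.07% and 65.2%, and for Ptprb 18.9% and 40.0%. The share within groups was 3.40% for Cd34, 28.0% for Eng and 33.6% for Ptprb.

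**Figure D5:**
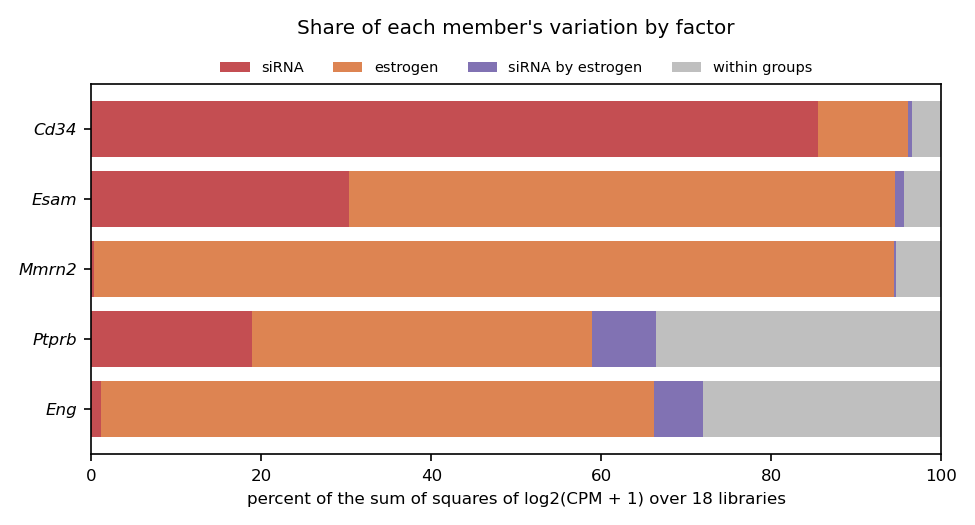
Percent of the sum of squares of log2(CPM + 1) over 18 libraries (horizontal, from 0 to 100) that lay between siRNAs, between estrogens, in their interaction and within groups, for each tested member (rows). The siRNA part is longest for Cd34 at 85.5% and the estrogen part for Mmrn2 at 94.2%.

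The genes whose pattern over the 18 libraries was most like each member differed from member to member. For Cd34 they were Olfml2b (Pearson r 0.989 of log2 values), the secreted angiopoietin-like gene Angptl7 (0.985) and the interleukin receptor Il1r1 (0.984). For Esam they were Arl4d (0.964), the collagen Col3a1 (0.964) and Gfpt2 (0.962). For Mmrn2 they were the claudin Cldn1 (0.947), Tmem43 (0.941) and Phka1 (0.939). Eng was most like Timp1 (0.895) and Ptprb most like Tnfrsf21 (0.876). Among the members r was highest between Mmrn2 and Eng (0.843) and lowest between Cd34 and Eng (0.315). These correlations describe 6 groups of 3 libraries that share their groups and scaling, and carry no test.

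Markers of other cell types moved with the same factors. Of 11 tested mesothelial markers 9 were called lower with siCYP1B1 averaged over the arms, and 8 with E2 in scrambled cells, none higher in either. Of all tested genes 18.2% and 11.4% were called lower in those comparisons, which also serve for the lists that follow. The summed level of the mesothelial markers ran over 3778 to 3837 CPM in siCYP1B1 E2, 4330.3 to 4517 in siCYP1B1 16aOHE, 4624 to 4808 in siCYP1B1 vehicle, 4786 to 4951 in scrambled E2, 5538 to 5746 in scrambled 16aOHE and 5982 to 6061 CPM in scrambled vehicle. None of the 12 in the table was at 0 in any library.

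Of 6 tested fibroblast and pericyte markers 5 were lower with siCYP1B1, and 4 were lower and 1 higher with E2 in scrambled cells. Their sum was 3456 to 3576 CPM in siCYP1B1 E2, 4602 to 4799 in siCYP1B1 16aOHE, 5233 to 5531 in siCYP1B1 vehicle, 4272 to 4785 in scrambled E2, 5800.3 to 6189.6 in scrambled 16aOHE and 6563 to 6922 CPM in scrambled vehicle. Lum was at 0 in 9 and Rgs5 in 5 of the 18 libraries. Both sums were ordered by estrogen within each siRNA as Esam was, and their part in the member differences was not tested.

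The other lists held fewer tested genes. Of 5 tested smooth muscle markers 4 were lower with siCYP1B1 and 2 with E2 in scrambled cells. The 9 with a row summed to between 1175 and 1264 CPM over all libraries, and most of this was Cald1 (965 CPM). Their median was 2.66 CPM, and 4 reached 10 CPM, of which Acta2 was the lowest. Tagln was at 2.66, Des at 0.727 and Cnn1 at 0.106 CPM, and Myh11 was at 0 in 7 libraries. Myocd and Actg2 were not matched to a row. Whether the cells were smooth muscle, as the series title has it, was not tested. Neither of the 2 tested leukocyte markers was called in either comparison (sums of 32.5 to 38.4 CPM), with Ptprc and Itgam at 0 in 11 libraries. No epithelial marker reached 1 CPM, and the 7 in the table summed to between 0.716 and 2.92 CPM.

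Genes that work beside the members were counted from lists chosen with earlier results known. Some genes stand on several lists, so the counts of the lists are not of separate genes. Jam2, F11r and Ctnna1 are both partners and junction genes, Mcam is an endothelial marker and a junction gene, and Cdh1 is a junction gene and a mesothelial marker. Over all tested genes 18.2% were called lower and 26.5% higher with siCYP1B1 averaged over the arms, and 11.4% lower and 18.6% higher with E2 in scrambled cells. The E2 calls were 62.0% higher ones, or 46.9% with median-of-ratios factors. Of 21 tested partners of the members, 9 were lower and 3 higher with siCYP1B1 (median log2 -0.091, against 0.026 over all genes), and 5 were lower and 7 higher with E2 in scrambled cells (0.019, against 0.034). Podxl, a sialomucin related to CD34, was lower in both (-0.37 with siCYP1B1 and -0.34 with E2). Its relative Podxl2, at a low 1.58 ± 0.670 CPM, fell with siCYP1B1 (-0.38) and rose with E2 (0.65). Jam2, a junctional adhesion molecule, fell by 0.40 with siCYP1B1 and rose by 0.39 with E2, the opposite direction to Esam under E2. The partner Cd63, at 64.7 ± 11.7 CPM, rose by 0.38 with siCYP1B1 and was not called with E2 (0.0096, adjusted p = 0.955).

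Among partners of Mmrn2, Cd93 and Clec14a were not matched to a row. Cd248 (endosialin, at 80.7 ± 17.9 CPM), which also binds multimerin-2, fell with E2 (-0.68) and by 0.17 with siCYP1B1. The TIE2 ligand Angpt2, at a low 1.72 ± 0.856 CPM, rose with E2 (1.02, adjusted p = 0.00208). Tek, the gene of TIE2 itself, averaged 0.824 CPM and was not tested. Acvrl1, the type I receptor that endoglin assists in endothelial cells, averaged 0.0449 CPM and was at 0 in 6 libraries. The catenins of cadherin junctions were abundant and moved little, in differing directions. Ctnnb1 was at 819 ± 43.3 CPM (0.098 with siCYP1B1 and 0.12 with E2, both called). Ctnnd1 was at 391 ± 22.3 CPM (0.056 with siCYP1B1 and -0.18 with E2, both called). Ctnna1 was at 975 ± 35.3 CPM (-0.091 with siCYP1B1, called, and -0.018 with E2, not called). Jup, at 269 ± 13.3 CPM, was called in neither.

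Of 10 tested other endothelial markers 4 were lower and 1 higher with siCYP1B1 (median -0.12), and 3 were lower and none higher with E2 in scrambled cells (median -0.11). Flt4 (-0.57), the adhesion molecule Mcam (-0.54) and Flt1 (-0.32) fell with siCYP1B1, and the same 3 genes fell with E2 (-0.28, -0.40 and -0.32). The sum of the 23 in the table was 353 to 376 CPM in siCYP1B1 E2, 371 to 397 in siCYP1B1 16aOHE, 381 to 388 in siCYP1B1 vehicle, 396 to 404 in scrambled E2, 417 to 423 in scrambled 16aOHE and 428 to 437 CPM in scrambled vehicle. Of 28 tested other junction and adhesion genes, 11 were lower and 6 higher with siCYP1B1 and 13 were lower and 5 higher with E2. The claudin Cldn15 (-0.77) and P-cadherin, Cdh3 (-0.56), fell with siCYP1B1, and Cldn1 (-1.01), E-cadherin, Cdh1 (-0.92), and Cldn15 (-0.91) fell with E2. Cgnl1, paracingulin, rose in both (0.31 and 0.59).

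Pecam1, Vwf and Plvap were measured at few reads, an estimated 8 at most in any library. Pecam1 (chromosome 11, 106654213 to 106715281, minus strand), the junctional adhesion molecule that usually marks endothelium, averaged 0.0481 ± 0.0593 CPM (SD, n = 18), an estimated 21 reads in all, with 0 in 8 libraries and at most 4 reads in any. Vwf (chromosome 6, 125552948 to 125686679, plus strand), the clotting factor stored in endothelial granules, averaged 0.0305 ± 0.0589 CPM, or 13 reads, with 0 in 12 libraries. Plvap (chromosome 8, 71497753 to 71511769, minus strand), which forms the diaphragms of caveolae and fenestrae, averaged 0.145 ± 0.101 CPM, or 64 reads, with 0 in 1 library.

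Averaged over the arms, Plvap stood at 0.127 CPM with siCYP1B1 and 0.163 CPM with scrambled siRNA (2-sided exact permutation p = 0.475), Pecam1 at 0.0501 CPM with siCYP1B1 and 0.0460 CPM with scrambled siRNA (exact p = 0.913), and Vwf at 0.0149 CPM with siCYP1B1 and 0.0461 CPM with scrambled siRNA (exact p = 0.290). Most of these levels lie at or under the 3-read limit, so a difference was not detectable at this depth. All 3 scrambled E2 libraries were at 0 for both Pecam1 and Vwf, and all 3 siCYP1B1 E2 libraries were at 0 for Vwf.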

How the data were processed

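RNA sequencing of 18 libraries (6 groups of 3) was used. The authors deposited 1 table of CPM values (counts scaled to the same total per library) with an offset of 0.0001 CPM, which was subtracted. TopHat2, Partek and mm10 are named per the submitters' processing notes, with versions, annotation, filters and strand handling not being given in the sources used here. Each gene end is the listed stop minus 1, which equalled the RefSeq end for 56.7% of 14902 symbols, against 4.13% for the stop as listed, and 57.7% of starts matched. From the steps of low values, 94.1% to 95.5% of which came out whole within 0.1 reads, depth was estimated, but the values were not treated as counts.

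Values were tested as log2(CPM + 1) with limma 3.58.1 in R 4.3.3 (lmFit, then eBayes with trend), 1 coefficient per group over 18 libraries, for 11835 genes averaging at least 1 CPM, in 12 contrasts, with Benjamini-Hochberg adjustment over those genes and a threshold of 0.05. The script was tested on simulated data. Members under 1 CPM were compared by 2-sided exact permutation within arms (8000 arrangements); within 1 arm no p under 0.1 is possible. Alternatives were other scalings, pseudocounts and filters, fitting only the compared groups, and leaving out each library. The members and the 8 lists were chosen with earlier results of these data known. Besides members, genes were named from each list by level, high or low, by size of called change or by their relation to a member. Not all genes of a list are named, also among those with the highest levels. Others were named by the highest Pearson r with a member. Exon lengths and overlaps are from GENCODE. Figures used matplotlib 3.10.9.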

Additional observations from a re-analysis of the deposited data

How the results depend on the processing

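Of the 28 member differences that were called, 186 of 187 values from the other scalings, pseudocounts, filters and fits of only the compared groups kept their direction and their call, as did 189 of 204 values with 1 library left out, and none changed sign. The exceptions are named beside Cd34, Eng and Ptprb above, together with Cd34 under 16aOHE in siCYP1B1 cells, which had an adjusted p of 0.0632 when genes of all levels were tested. Among the 32 differences that were not called, 7 of 216 values from those alternatives passed, and 5 of 276 with 1 library left out; these concern Esam and Cd34 for 16aOHE in scrambled cells, Ptprb for the siRNA in 16aOHE, and Cd34, Eng and Ptprb for 16aOHE against E2, as given beside them. Of the members, 16aOHE against vehicle in scrambled cells called 2 with a pseudocount of 5 CPM and 2 when only the groups of the contrast were fitted, and 0 with a filter at a mean of 5 CPM, which removes Mmrn2 from the genes tested; 16aOHE against E2 in siCYP1B1 cells called 1 under that filter. With 1 library left out, 16aOHE against vehicle in scrambled cells called 1 to 2 members, Cd34 passing without scrambled vehicle 3. Over all genes, fitting only the compared groups gave 1538 calls for the siRNA in 16aOHE, against 2331, 365 for 16aOHE in siCYP1B1 cells, against 639, and 12 for the 16aOHE interaction, against 0; fewer samples entered those fits. Leaving out 1 library gave 1538 to 2170 calls for the siRNA in 16aOHE, 248 to 306 for 16aOHE in scrambled cells (454 with all libraries), 306 to 755 for 16aOHE in siCYP1B1 cells, 1446 to 2229 for 16aOHE against E2 in siCYP1B1 cells and 0 to 1 for the 16aOHE interaction. Counts fell by over 1.5 times without scrambled 16aOHE 1 for the siRNA in 16aOHE, without scrambled 16aOHE 1 or 3 or scrambled vehicle 1 or 2 for 16aOHE in scrambled cells, without siCYP1B1 16aOHE 2 or siCYP1B1 vehicle 2 or 3 for 16aOHE in siCYP1B1 cells, and without siCYP1B1 16aOHE 2 for 16aOHE against E2.

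Differences near 0 that were not called changed sign. Eng under the siRNA in E2 was -0.0035 and Mmrn2 there 0.016 with quantile normalization, and the E2 interaction of Eng was 0.00071 with median-of-ratios factors and 0.00092 with a pseudocount of 0.1 CPM. With 1 library left out, the siRNA difference of Eng ran from -0.041 to 0.099 in vehicle, -0.059 to 0.15 in E2 and -0.064 to 0.0054 averaged over the arms, that of Mmrn2 from -0.12 to 0.011 in vehicle and -0.099 to 0.094 in E2, and that of Ptprb from -0.11 to 0.013 in E2. The 16aOHE difference of Ptprb ran from -0.18 to 0.024 in scrambled and -0.052 to 0.21 in siCYP1B1 cells. The E2 interaction ran from -0.083 to 0.13 for Eng and -0.062 to 0.13 for Mmrn2, and the 16aOHE interaction from -0.15 to 0.020 for Cd34 and -0.20 to 0.024 for Mmrn2. The Pecam1 difference ran from -0.017 to 0.017 CPM. The causes of these changes were not tested. With median-of-ratios factors the share of all calls that were higher moved as given above for E2, for the siRNA in E2 and vehicle and for 16aOHE against E2, and for siCYP1B1 over the arms to 50.4%, against 59.3%, while the called members kept their direction. No paired analysis was possible because the labels give no replicate numbers that tie libraries of one group to those of another. Depth limits Pecam1, Vwf and Plvap, whose levels rest on few reads, an estimated 8 at most in any library.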
